A study of Mus musculus with 8 samples.

Results

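The lysosomal cathepsins and the vacuolar ATPase (V-ATPase) were followed here as a set of 35 named genes: 12 lysosomal proteases, 5 genes for glycan and lipid breakdown, 3 lysosomal membrane proteins, the transcription factors Tfeb and Tfe3, and 13 genes for subunits and accessory proteins of the proton pump. A probe set was taken for a gene only where the array's annotation paired it with that symbol alone, and where a gene had several, the one with the highest 8-array mean stood for it. This gave a value for 34 of the 35 genes, out of 18193 genes in all. Atp6v0c, which encodes a proteolipid of the pump's membrane ring, had no such probe set and is not analysed here. The genes were picked by name, but with earlier results of these data known. Levels decided only which probe set stood for a gene.

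RNA came from mouse bone-marrow-derived macrophages, which are bone marrow cells grown with macrophage colony-stimulating factor (10 ng/mL) for 7 to 10 days and purified by adherence. The 4 groups were Tpl2 KO macrophages given lipopolysaccharide (LPS), Tpl2 wild-type macrophages given LPS, unstimulated Tpl2 KO macrophages and unstimulated Tpl2 wild-type macrophages, with 2 Affymetrix arrays each. LPS was from Escherichia coli at 1 μg/mL, and the labels give no exposure time for these arrays, nor the age or sex of the mice or how the knockout was made. The arrays of a group are called biological replicates, but nothing says that they came from separate animals, so the p-values speak only of the spread among these arrays, which may be technical. Tpl2, the product of Map3k8, is a kinase that links Toll-like receptors to the MEK and ERK kinases, and the study's stated purpose was to profile macrophages with and without it.

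Lysosomes digest material that macrophages engulf as well as their own components. Cathepsins and glycosidases do the cutting and work best at acid pH, which the V-ATPase maintains: its cytosolic V1 sector splits ATP and drives protons through the membrane-embedded V0 sector. Many lysosomal and V-ATPase genes carry a CACGTG-type element that TFEB and TFE3 bind, and the kinase complex mTORC1 holds both factors in the cytosol when nutrients are plentiful.

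All values are deposited log2 intensities, so a difference of 1 is a doubling, and SD is over the 2 arrays of a group. A gene was counted as higher or lower at a Benjamini-Hochberg adjusted p under 0.05 in limma's moderated test over all 18193 genes, and each ± beside a log2 change is its standard error. Map3k8 averaged 9.96 ± 0.19 in LPS-treated KO cells and 10.96 ± 0.07 with LPS in the wild type. Without LPS it averaged 8.27 ± 0.06 in unstimulated KO cells and 9.27 ± 0.01 in unstimulated wild-type cells (SD, n = 2 each). It was therefore lower in the KO under both conditions, 2.00-fold in each (limma adjusted p = 0.000125 with LPS and 0.00237 without). It rose with LPS in both genotypes, by 1.68 in each. Its only probe set is not placed relative to the deleted part by the labels. The 2 LPS-treated KO arrays differed more from each other than the 2 arrays of any other group did. The median SD over all genes was 0.129 there, against 0.0660 in LPS-treated wild-type cells, 0.0649 in unstimulated KO cells and 0.0662 in unstimulated wild-type cells. The fit assumes one spread for all groups, so errors of differences that involve the LPS-treated KO arrays may be too small.

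All 12 macrophage markers on a fixed list lay above the array medians (6.48 to 6.53) in every group. Their mean level was 12.19 to 12.34 in LPS-treated KO arrays and 12.50 to 12.53 in LPS-treated wild-type arrays. It was 12.66 to 12.68 in unstimulated KO arrays and 12.67 to 12.71 in unstimulated wild-type arrays. The median log2 change of these 12 markers with LPS was −0.30 in the KO and −0.12 in the wild type. Single markers ran from −5.33 to 1.51 in the KO and from −4.42 to 1.86 in the wild type. All 5 mast cell markers lay under the array median in LPS-treated KO, LPS-treated wild-type and unstimulated KO cells, as did 4 of 5 in unstimulated wild-type cells. Of 9 measured neutrophil markers, 7 lay under it in KO cells with LPS, 6 in wild-type cells with LPS and 7 in unstimulated cells of each genotype. The neutrophil list's mean level was 6.45 to 6.61 in LPS-treated KO arrays and 6.68 to 6.70 in LPS-treated wild-type arrays, against 6.26 to 6.32 and 6.23 to 6.27 in the unstimulated KO and wild-type arrays. The 6 stromal markers averaged 7.08 to 7.33 and 7.02 to 7.04 in LPS-treated KO and wild-type arrays, against 6.08 to 6.96 and 6.41 to 6.46 in unstimulated ones. Their largest log2 change with LPS was a rise of 4.95 in the KO and 3.84 in the wild type. The median change of the 6 was −0.04 in the KO and 0.07 in the wild type. Of 8 osteoclast markers, 2 lay under the array median in each group, except 3 in unstimulated wild-type cells. Of 6 measured dendritic cell markers, 1 and 2 did so in LPS-treated KO and wild-type cells, and 2 and 3 in unstimulated ones. Of 7 measured T, NK and B cell markers these counts were 5 and 5, and 6 and 5. With LPS, 4 of the 8 osteoclast markers were lower in the KO than in the wild type and 1 was higher. Over all genes 5.73% were lower and 8.01% higher. The log2 ratio of Actb signal at the 3′ end over the 5′ end, a sign of RNA integrity, was 0.61 to 0.68 in LPS-treated KO arrays and 0.46 to 0.55 in LPS-treated wild-type arrays. In unstimulated cells it was 0.87 to 0.90 in KO arrays and 0.67 to 0.81 in wild-type arrays. What part these shifts have in the changes of the lysosomal genes was not tested, and in bulk RNA fewer cells of a type and less RNA per cell cannot be told apart.

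Most lysosomal and V-ATPase genes were lower with LPS, in the KO as well as in the wild type. In KO macrophages 24 of 34 genes fell and 1 rose, where 25.8% of all genes fell and 16% rose (41.8% in all). In wild-type macrophages 26 of 34 fell and 2 rose, where 30.9% of all genes fell and 21.3% rose (52.2% in all). The share that fell was thus 70.6% in the KO and 76.5% in the wild type. Most of the 34 are strongly detected genes, and among the genes above the median level the shares that fell were 42.9% in the KO and 51.2% in the wild type. The median log2 change of the 34 was −0.49 in the KO and −0.51 in the wild type, against 0.00 and 0.04 over all genes. Over the genes above the median level it was −0.20 in the KO and −0.32 in the wild type.

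Most of the genes that fell did so in both genotypes: 23 of 34 passed as lower in each, or 67.6%, against 23.2% of all genes. Ctsc rose in both. Tfe3 fell in the KO without passing in the wild type, while Atp6v0b, Atp6v1d and Atp6v1f fell, and Atp6v1e1 rose, in the wild type without passing in the KO. Ctsb, Ctss, Ctsz, Lamp2 and Atp6v1h passed in neither. Across the 34 genes the LPS changes of the KO and of the wild type, which share no array, had a Pearson r of 0.84 and a Spearman rho of 0.79. Over all 18193 genes these were 0.90 and 0.81, and genes measured on the same arrays are not independent.

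**Figure D1:**
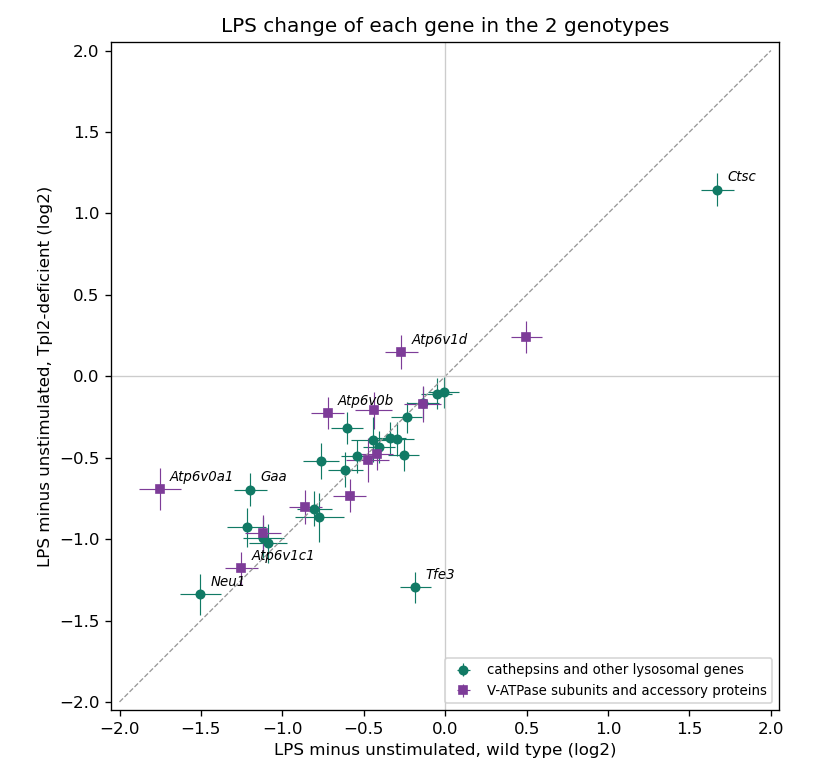
Log2 change with LPS in KO macrophages plotted against that in wild-type macrophages, 1 point per gene (34 genes), with standard errors; circles are cathepsins and other lysosomal genes and squares are V-ATPase genes. Most points lie below 0 on both axes close to the line of equal change. Ctsc is the point high on both axes (1.15 in the KO, 1.67 in the wild type), and Tfe3 (−1.30 in the KO, −0.19 in the wild type) and Atp6v0a1 (−0.69 in the KO, −1.75 in the wild type) stand off the line.

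Among the cathepsins and legumain, 8 of 12 fell and 1 rose in the KO, with a median change of −0.39, and 8 fell and 1 rose in the wild type, with a median of −0.35. The largest falls were those of Lgmn and Ctsa. Lgmn, the asparaginyl endopeptidase that trims cathepsins to their mature forms, had 12.82 and 13.37 in LPS-treated KO cells, against 13.95 and 13.98 in unstimulated KO cells. It had 13.27 and 13.25 in LPS-treated wild-type cells, against 14.05 and 14.02 in unstimulated wild-type cells. The LPS-treated arrays lay below the unstimulated ones in both genotypes, and the LPS-treated KO arrays were further apart than those of any other group. Its log2 change was −0.87 ± 0.15 in the KO (limma adjusted p = 0.000603) and −0.77 ± 0.15 in the wild type (0.00114).

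Ctsa, the carboxypeptidase that also protects lysosomal neuraminidase and beta-galactosidase, fell in both genotypes, with −0.81 in the KO and −0.80 in the wild type. Ctsd, an aspartic protease, changed by −0.44 in the KO and by −0.41 in the wild type, and fell in both. The aspartic protease Ctse and the cysteine proteases Ctsf, Ctsh, Ctsl and Ctso also fell in both genotypes, by values between −0.26 and −0.76. With all its probe sets averaged Ctsf passed in neither, with −0.21 in the KO and −0.19 in the wild type. Ctss, which processes the invariant chain in antigen presentation, had 14.83 and 14.81 in LPS-treated KO cells, against 14.89 and 14.95 in unstimulated KO cells. It had 14.87 and 14.83 in LPS-treated wild-type cells, against 14.84 and 14.88 in unstimulated wild-type cells. Its change was −0.10 in the KO (95% interval −0.31 to 0.11) and −0.01 in the wild type (−0.22 to 0.20), and neither passed. The LPS-treated KO arrays lay below the unstimulated KO arrays, while the wild-type groups overlapped.

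Ctsc was the only gene of the 34 that rose with LPS in both genotypes. It encodes dipeptidyl peptidase I, which activates the serine proteases of immune cell granules. Ctsc had 13.97 and 14.05 in LPS-treated KO cells, against 12.82 and 12.91 in unstimulated KO cells. It had 14.32 and 14.28 in LPS-treated wild-type cells, against 12.56 and 12.70 in unstimulated wild-type cells. The groups did not overlap: both LPS-treated groups lay above both unstimulated ones, and the LPS-treated wild-type arrays were highest. The rise was 2.21-fold in the KO (log2 1.15 ± 0.10, limma adjusted p = 2.72e-06) and 3.18-fold in the wild type (log2 1.67 ± 0.10, 1.1e-07).

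All 5 glycosidase and saposin genes fell in both genotypes, with a median change of −0.70 in the KO and −1.09 in the wild type. Neu1, the sialidase that removes terminal sialic acids, fell furthest among them. It had 9.08 and 9.44 in LPS-treated KO cells, against 10.63 and 10.57 in unstimulated KO cells, and 9.33 and 9.23 in LPS-treated wild-type cells, against 10.81 and 10.76 in unstimulated wild-type cells. LPS-treated and unstimulated arrays were more than 1 log2 unit apart in either genotype. The fall was 2.53-fold in the KO (log2 −1.34 ± 0.12, limma adjusted p = 4.17e-06) and 2.84-fold in the wild type (−1.50 ± 0.12, 1.38e-06).

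Gusb, the beta-glucuronidase, had a log2 change of −1.03 in the KO and −1.09 in the wild type. Gaa, which breaks down lysosomal glycogen, had a change of −0.70 in the KO and −1.20 in the wild type. Hexa, a subunit of beta-hexosaminidase, changed by −0.49 in the KO and −0.54 in the wild type. Psap, the precursor of the saposin activators, changed by −0.57 in the KO and −0.61 in the wild type.

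Of the 3 membrane genes, Lamp1 and Mcoln1 fell in both genotypes. Mcoln1, the lysosomal calcium release channel, had 9.16 and 9.50 in LPS-treated KO cells, against 10.36 and 10.29 in unstimulated KO cells. In the wild type it had 9.33 and 9.17 with LPS, against 10.39 and 10.33 without. Its log2 change was −0.99 ± 0.13 in the KO (limma adjusted p = 5.17e-05) and −1.12 ± 0.13 in the wild type (1.67e-05). The abundant membrane glycoprotein Lamp1 changed by −0.38 in the KO and −0.34 in the wild type. Its relative Lamp2 passed in neither, with −0.25 in the KO (limma adjusted p = 0.0546) and −0.24 in the wild type (0.0568).

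**Figure D2:**
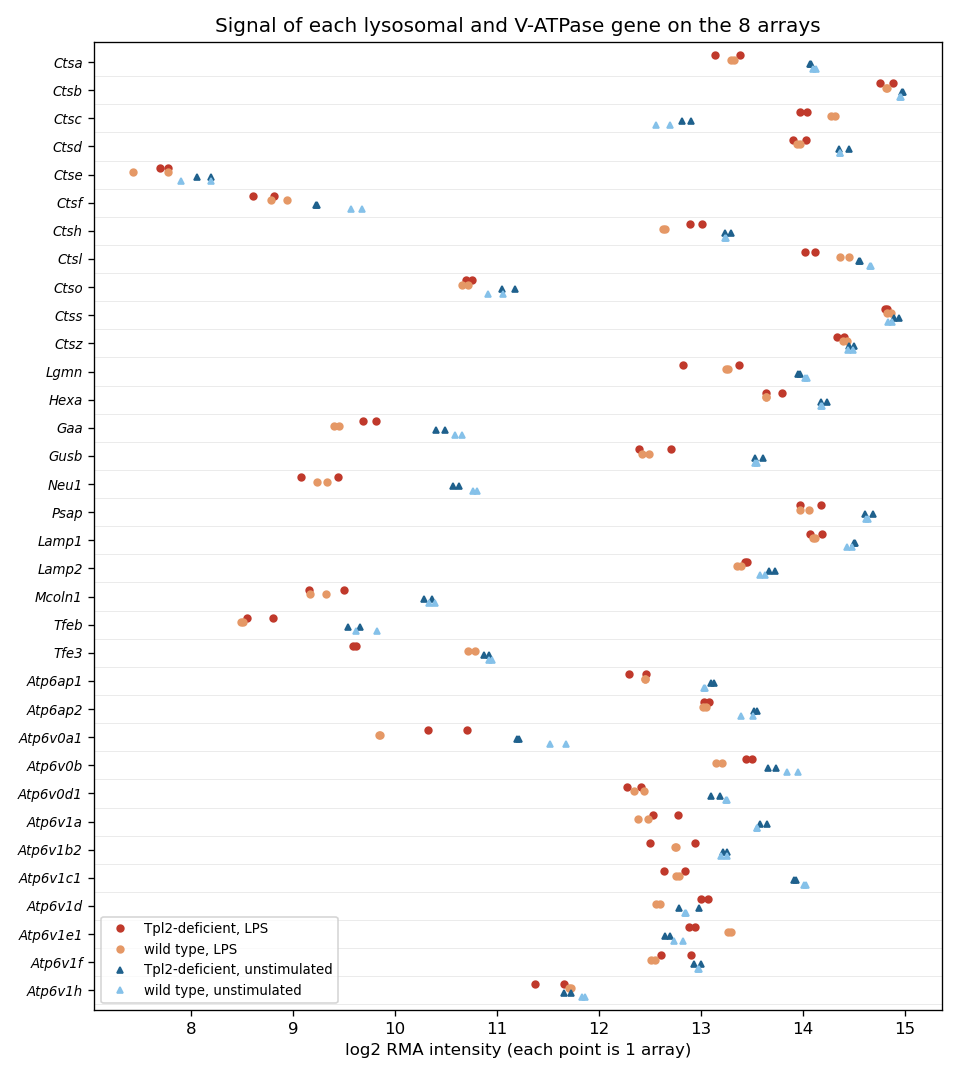
Log2 intensity of the 34 genes on each of the 8 arrays, 1 row per gene ordered by role; circles are LPS-treated and triangles unstimulated arrays, with KO in the darker shade and wild type in the lighter. Points of the LPS-treated arrays lie below those of the unstimulated arrays for most genes (all lower in 30 of 34 genes in the KO, against 35.5% of all genes, and in 31 of 34 in the wild type, against 39.2%), with Ctsc the clearest exception.

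In the V-ATPase, 7 of the 12 measured genes fell in the KO, and 10 fell and 1 rose in the wild type. The catalytic subunit of V1, Atp6v1a, changed by −0.96 in the KO and −1.12 in the wild type. The non-catalytic Atp6v1b2 changed by −0.52 in the KO and −0.48 in the wild type, and each of these passed. With all its probe sets averaged Atp6v1b2 passed in neither, with −0.21 in the KO and −0.05 in the wild type. Atp6v1c1, which links the V1 head to the stator, had 12.64 and 12.85 in LPS-treated KO cells, against 13.94 and 13.91 in unstimulated KO cells. It had 12.79 and 12.76 in LPS-treated wild-type cells, against 14.01 and 14.04 in unstimulated wild-type cells. The 2 conditions were well separated in each genotype, and the LPS-treated genotypes overlapped. The fall was 2.27-fold in the KO and 2.38-fold in the wild type (limma adjusted p = 2.6e-06 and 1.37e-06).

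The remaining V1 genes included the only 1 of the 12 V-ATPase genes among the 34 that rose. Atp6v1e1, a stalk subunit, had 12.88 and 12.95 in LPS-treated KO cells, against 12.70 and 12.65 in unstimulated KO cells, and 13.30 and 13.27 in LPS-treated wild-type cells, against 12.83 and 12.74 in unstimulated wild-type cells. It lay above its unstimulated level in both genotypes, and the rise passed in the wild type (log2 0.50 ± 0.10, limma adjusted p = 0.00111) but not in the KO (0.24 ± 0.10, 0.0670). Atp6v1d, of the central rotor, had a log2 difference of 0.15 in the KO, which did not pass (limma adjusted p = 0.292), and fell by 0.27 in the wild type (0.0472). Atp6v1f, also of the rotor, had −0.21 in the KO (0.178) and fell by 0.44 in the wild type (0.00728). The regulatory Atp6v1h passed in neither, with −0.17 in the KO and −0.14 in the wild type.

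In the V0 sector, Atp6v0d1, which couples the rotor to the proteolipid ring, fell in both genotypes, with −0.80 in the KO and −0.86 in the wild type. The ring subunit Atp6v0b fell by 0.72 in the wild type, with −0.22 in the KO (limma adjusted p = 0.0942). Atp6v0a1, the subunit that carries the path of the protons, fell in both genotypes, with −0.69 in the KO and −1.75 in the wild type. With all its probe sets averaged the KO value was −0.08 and did not pass (limma adjusted p = 0.541). The accessory genes Atp6ap1 and Atp6ap2 fell in both genotypes. Atp6ap1 changed by −0.73 in the KO and −0.59 in the wild type, and Atp6ap2 by −0.48 in the KO and −0.42 in the wild type.

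Tfeb fell in both genotypes. It had 8.81 and 8.55 in LPS-treated KO cells, against 9.66 and 9.54 in unstimulated KO cells. It had 8.49 and 8.51 in LPS-treated wild-type cells, against 9.83 and 9.62 in unstimulated wild-type cells. All LPS-treated arrays lay below all unstimulated ones. The fall was 1.90-fold in the KO (log2 −0.93 ± 0.12, limma adjusted p = 6.35e-05) and 2.33-fold in the wild type (−1.22 ± 0.12, 5.69e-06).

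The falls of Ctse, Ctsh, Ctso, Lamp1 and Atp6v1b2 in the KO, and of Ctse, Ctsl, Ctso, Lamp1, Atp6v1b2 and Atp6v1d in the wild type, lost their call when 1 array was left out. In the KO that was either unstimulated KO array for Ctsh and Lamp1, unstimulated KO replicate 2 for Ctso, replicate 1 for Atp6v1b2, and any 1 of the 4 KO arrays for Ctse. In the wild type it was either LPS-treated wild-type array or unstimulated wild-type replicate 2 for Ctso and Lamp1, LPS-treated replicate 1 or unstimulated replicate 2 for Ctse, and either LPS-treated array or unstimulated replicate 1 for Atp6v1b2. For Ctsl and Atp6v1d it was any 1 array outside the LPS-treated KO group. The remaining 19 falls in the KO and 20 in the wild type kept their call without any 1 array.

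Since TFEB and TFE3 are known to bind the element TCACGTGA, whose core is CACGTG, the promoters of these genes were searched for both. RefSeq promoter sequences (GRCm38.p6; 250 bases before to 50 after each transcription start) were at hand for 29 of the 35 genes. Both letter strings read the same on either strand, and every longer match also holds the core. The core was found in 11 of 29 genes (37.9%), against 8.09% of the 27025 genes in the table. The longer element was found in 5 of 29 (17.2%), against 1.12%. These 5 were Ctsa, Ctsd, Mcoln1, Atp6v0d1 and Atp6v1a, and 6 more held the core alone: Ctsf, Ctsl, Lgmn, Gaa, Lamp1 and Atp6v0b. A match is a description of the letters and not a measured binding site.

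The longer element and its surroundings are shown for 4 of the 5 genes, with the element in capitals, read 5′ to 3′ along the gene's own strand. The Mcoln1 stretch holds a further core, in lower case, at its left edge. In Atp6v0d1 the element spans the annotated start and is not printed, nor is a second one in Ctsa that begins after the start. The stretches are chr2:164833734-164833772 (plus strand) for Ctsa, chr7:142387893-142387952 (minus) for Ctsd, chr8:3500447-3500506 (plus) for Mcoln1 and chr16:44139358-44139417 (minus) for Atp6v1a.
Ctsa: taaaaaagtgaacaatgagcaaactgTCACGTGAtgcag
Ctsd: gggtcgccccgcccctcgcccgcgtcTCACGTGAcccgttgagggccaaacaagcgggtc
Mcoln1: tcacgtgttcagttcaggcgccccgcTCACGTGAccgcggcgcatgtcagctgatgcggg
Atp6v1a: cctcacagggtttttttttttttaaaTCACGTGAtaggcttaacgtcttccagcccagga

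The first base of the printed element lies 13 bases before the start in Ctsa, 99 in Ctsd, 46 in Mcoln1 and 132 in Atp6v1a. All 5 genes with the longer element fell in both genotypes, between −0.44 and −0.99 in the KO and between −0.41 and −1.12 in the wild type. The median LPS change of these 5 was −0.81 in the KO and −0.86 in the wild type. For the 11 genes with the core it was −0.70 in the KO and −0.77 in the wild type. For the 17 measured genes whose promoter lacked the core it was −0.48 in the KO and −0.42 in the wild type. This last set spans the widest range, from −1.34 to 1.15 in the KO and from −1.75 to 1.67 in the wild type, and holds Ctsc as well as Neu1 and Atp6v0a1. Whether the sets differ was not tested.

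With LPS, few of these genes differed between the genotypes, and Tfe3 differed most. Against wild-type cells, 2 of 34 genes were higher in KO cells and 3 were lower, where 8.01% of all genes were higher and 5.73% lower (13.7% in all). The shares among the 34, 5.88% higher and 8.82% lower, lie near those of all genes. The median KO over wild-type difference of the 34 was 0.01, against 0.02 over all genes. The comparison asks whether loss of Tpl2 alters the LPS-treated state of the lysosome genes.

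Tfe3, the close relative of Tfeb, had 9.62 and 9.59 in LPS-treated KO cells, against 10.72 and 10.79 in LPS-treated wild-type cells. Without LPS it had 10.93 and 10.88 in KO cells, against 10.96 and 10.92 in wild-type cells. The LPS-treated KO arrays were lower than all the others by more than 1 log2 unit, and the unstimulated genotypes overlapped. With LPS it was 2.22-fold lower in the KO (log2 −1.15 ± 0.10, limma adjusted p = 1.33e-05). LPS lowered it 2.46-fold in the KO (log2 −1.30 ± 0.10, 5.85e-07), while its change in the wild type was −0.19 ± 0.10 (0.125).

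For Tfeb the KO over wild-type difference with LPS did not pass, at 0.17 (95% interval −0.09 to 0.44, limma adjusted p = 0.450). Both factors have a single probe set on this array under the rule used, so the Tfe3 result has no second probe set beside it. It kept its call without any 1 array and in every other alternative run.

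Atp6v0a1 was higher in LPS-treated KO cells than in LPS-treated wild-type cells. It had 10.33 and 10.71 in LPS-treated KO cells, against 9.86 and 9.84 in LPS-treated wild-type cells. Without LPS it had 11.20 and 11.22 in unstimulated KO cells, against 11.68 and 11.52 in unstimulated wild-type cells. The order of the genotypes was opposite in the 2 conditions, with no overlap in either. With LPS the KO was 1.59-fold higher (log2 0.67 ± 0.13, limma adjusted p = 0.00509).

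Atp6v1d was 1.37-fold higher in LPS-treated KO cells, with 13.07 and 13.00, against 12.57 and 12.60 in LPS-treated wild-type cells (log2 0.45 ± 0.10, limma adjusted p = 0.0133). Atp6v1e1 was 1.29-fold lower in the KO (log2 −0.37 ± 0.10, 0.0280). Ctsl, the endopeptidase cathepsin L, was 1.26-fold lower, with 14.03 and 14.12 in LPS-treated KO cells, against 14.45 and 14.37 in LPS-treated wild-type cells (log2 −0.34 ± 0.10, 0.0404). None of the 3 overlapped between the LPS-treated genotypes, which held for 46.6% of all genes. Just outside the threshold lay Gaa (0.32, limma adjusted p = 0.0563), Ctsh (0.31, 0.0583), Atp6v0b (0.29, 0.0789) and Ctsc (−0.29, 0.0884).

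**Figure D3:**
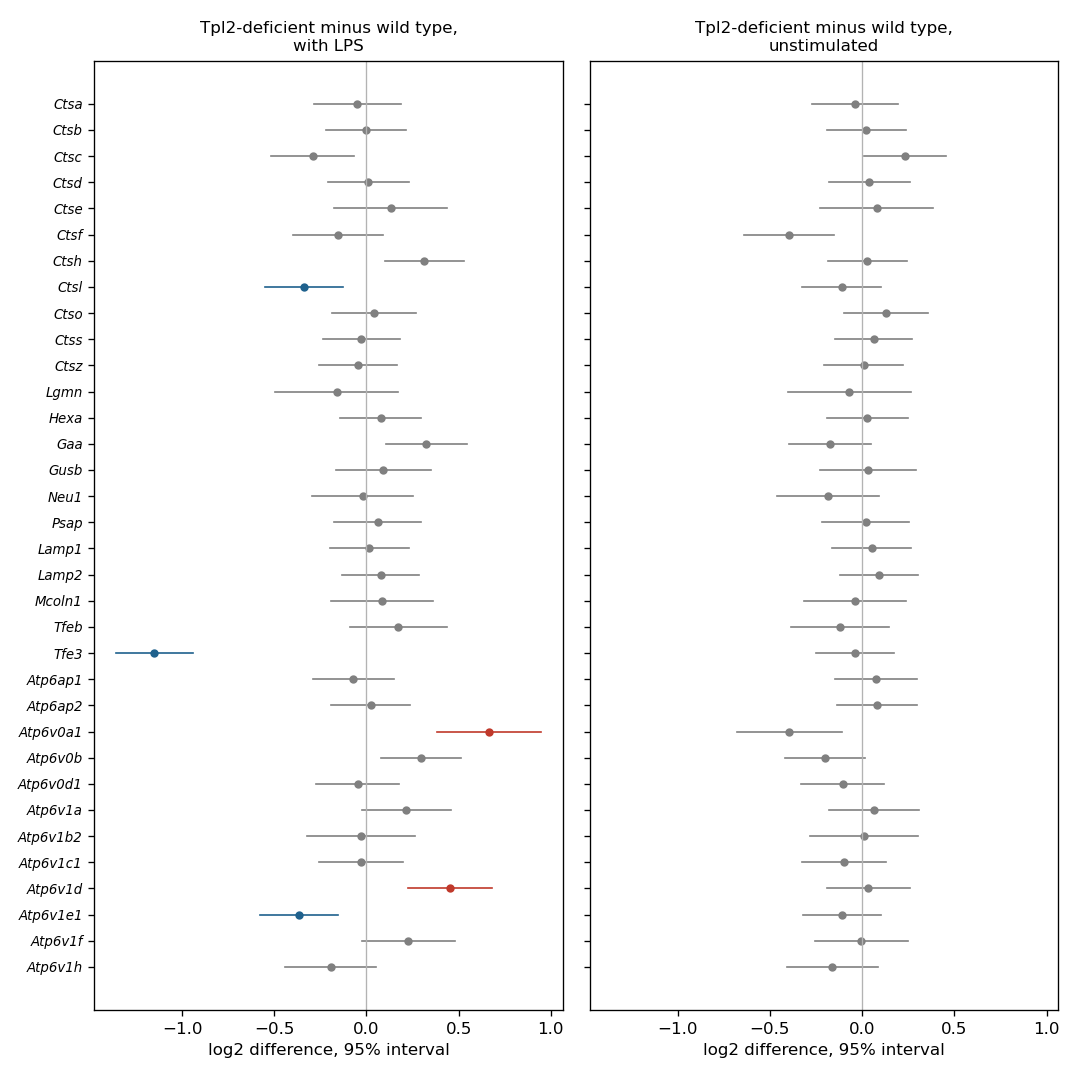
KO over wild-type log2 difference of the 34 genes with LPS and without, 1 point per gene with its 95% interval, ordered by role; called genes are red where higher and blue where lower. With LPS, Tfe3 (−1.15) and Atp6v0a1 (0.67) lie furthest from 0 and most intervals cover 0; without LPS no gene was called.

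These smaller differences depended on single arrays. The call of Atp6v1d was lost without either LPS-treated wild-type array, and that of Atp6v1e1 without either LPS-treated wild-type or either unstimulated KO array. That of Ctsl was lost without any 1 array other than LPS-treated KO replicate 2. With 1 array left out, 1 to 4 genes were higher and 1 to 5 lower. There were 4 higher without either LPS-treated KO array and 1 without either LPS-treated wild-type array. There were 5 lower without LPS-treated KO replicate 2, and 1 without either LPS-treated wild-type or either unstimulated KO array. With array weights, which came out equal for the 2 arrays of each group and so do not rate single arrays, only Tfe3 and Atp6v0a1 passed.

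**Figure D4:**
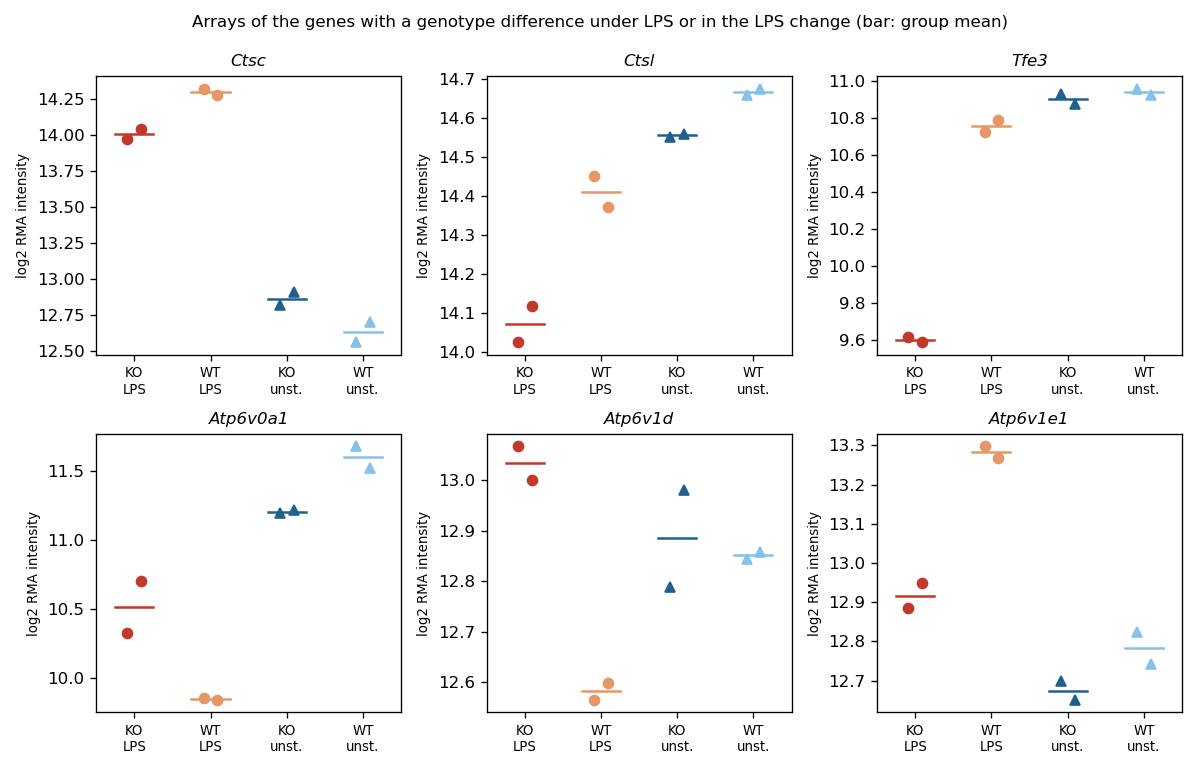
Log2 intensity per array (points) and group mean (horizontal line) of the genes that differed between the genotypes with LPS or in their LPS response, in the order LPS-treated KO, LPS-treated wild type, unstimulated KO, unstimulated wild type. Tfe3 is low only in the 2 LPS-treated KO arrays (9.59 and 9.62), and the genotypes of Atp6v0a1 change order between the conditions.

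Without LPS, no difference between the genotypes passed for any of the 34 genes, where 0.154% of all genes were higher in the KO and 0.346% lower (0.5% in all). In limma's test 3 of the 34 genes had an unadjusted p under 0.05, as had 2445 of all 18193 genes. Ctsf, a cysteine cathepsin, had 9.23 and 9.23 in unstimulated KO cells, against 9.68 and 9.57 in unstimulated wild-type cells (log2 −0.40, 95% interval −0.64 to −0.15, limma adjusted p = 0.177). Atp6v0a1 differed by −0.39 (−0.68 to −0.11, 0.236) and Ctsc by 0.23 (0.01 to 0.45, 0.357). The arrays of the 2 genotypes did not overlap for any of these 3, as for 53.1% of all genes. With array weights Ctsf and Atp6v0a1 passed as lower.

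The LPS response itself was compared between genotypes as the KO change minus the wild-type change. It differed for 3 of 34 genes, 1 higher and 2 lower, where 5.72% of all genes were higher and 2.87% lower (8.59% in all). For Tfe3 the difference was −1.11 ± 0.13 (limma adjusted p = 0.000525), a steeper fall in the KO. For Atp6v0a1 it was 1.06 ± 0.18 (0.00454), a shallower fall in the KO. For Ctsc it was −0.52 ± 0.14 (0.0474), a smaller rise in the KO.

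Tfe3 and Atp6v0a1 kept this call in every alternative run, without any 1 array included. Ctsc lost it without any 1 of the 6 arrays outside the LPS-treated KO group. Atp6v0b (0.50, limma adjusted p = 0.0523) and Gaa (0.50, 0.0537) lay just outside the threshold. For 32 of the 34 genes the 95% interval of the difference lay within 1 log2 unit of 0, against 16507 of 18193 genes. The wild-type log2 change was the lower one in 17 of 34, against 9341 of 18193.

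The 34 genes have 78 probe sets, with more than 1 for 24 of them, and these were fitted in a model over all probe sets with their own adjustment. In the KO 43 of 78 fell with LPS and 6 rose, where 23.1% of all 34945 probe sets fell and 15.9% rose. In the wild type 45 fell and 11 rose, where 27.1% fell and 20.7% rose. With LPS the KO was higher than the wild type in 6 of 78 and lower in 9, where 6.2% of all probe sets were higher and 5.67% lower. Without LPS it was higher in 0 and lower in 1, where 0.0973% of all were higher and 0.238% lower. Probe sets of 1 gene passed in opposite directions for Atp6v0a1 in the KO, and for Atp6v1b2 and Ctsf in the wild type.

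For Ctsb, Ctsc and Ctsl the brightest probe set gave a smaller change than the dimmer ones, and for Neu1 a larger one. Other genes also went both ways: in the KO the brightest gave a smaller change for Psap and a larger one for Ctsa and Gusb. On the other Neu1 probe sets, with levels between 5.36 and 6.62 on all arrays, the log2 differences in the KO were 0.23, which did not pass, and −0.42, which did. In 12 of the 34 genes a group mean exceeded 14, on arrays whose highest value was 15.33, and the files hold no saturation flags. Whether bright probe sets were limited at the top of the scale was not tested. For Ctsb, a cysteine protease with both endo- and exopeptidase activity, the probe set that stands for the gene lay near 14.9, and its log2 differences of −0.16 in the KO and −0.14 in the wild type passed in neither. A dimmer Ctsb probe set, 1417491_at, had 12.30 and 12.86 in LPS-treated KO cells, against 13.66 and 13.73 in unstimulated KO cells. In the wild type it had 12.50 and 12.48 with LPS, against 13.64 and 13.49 without. It changed by −1.11 in the KO and −1.08 in the wild type (limma adjusted p = 0.000117 and 0.000129).

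For Ctsc the 2 dimmer probe sets gave a larger rise and a larger genotype difference than the probe set used for the gene. On 1437939_s_at it had 10.80 on both LPS-treated KO arrays, against 12.32 and 12.12 on LPS-treated wild-type arrays, and 7.77 on both unstimulated KO arrays, against 7.40 and 7.35 on unstimulated wild-type arrays. The LPS-treated KO arrays were far below the LPS-treated wild-type ones, while the unstimulated KO arrays were slightly above. The LPS rise on it was 3.03 in the KO and 4.85 in the wild type, and the difference of the responses was −1.82 ± 0.15 (limma adjusted p = 4.72e-05). On 1446834_at that difference was −2.03 ± 0.15 (1.62e-05), against −0.52 ± 0.15 (0.0650) on the probe set used for the gene in this fit.

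The second Ctsl probe set, 1457724_at, was lower with LPS in the KO, with 8.03 and 8.28, against 9.16 and 9.32 in the wild type (log2 −1.09 ± 0.13, limma adjusted p = 0.000145). Without LPS it had 9.68 and 9.59 in KO cells, against 10.38 and 10.16 in wild-type cells. The KO arrays thus lay below the wild-type ones without LPS too, but that difference did not pass. In this fit the Ctsl probe set used for the gene did not pass with LPS (−0.34, limma adjusted p = 0.0539). Of the 3 other Lamp2 probe sets, 2 rose with LPS in the wild type, by 0.38 and 0.43. All 3 Atp6v1d probe sets were higher in the LPS-treated KO, by 0.45, 0.51 and 0.58, and each passed. All 4 Atp6v1e1 probe sets were lower in the KO there, with differences between −0.37 and −0.84, and 3 of them passed.

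For Atp6v0a1 the probe sets disagreed on the LPS change. On 1425227_a_at LPS-treated KO cells had 8.29 and 8.15, against 7.47 and 7.53 in unstimulated KO cells, and LPS-treated wild-type cells had 7.78 and 7.74, against 7.81 and 7.91 in unstimulated wild-type cells. It rose by 0.72 in the KO (limma adjusted p = 0.000178) with −0.10 in the wild type, which did not pass (0.471), whereas the gene's brightest probe set fell in both. The difference of the responses was 0.81 ± 0.15 (0.00784) on this probe set. On the other 2 Atp6v0a1 probe sets it was 0.49 on 1460650_at and −0.21 on 1459924_at and passed on neither. When the probe sets of a gene were averaged, Atp6v0a1 lost its fall in the KO and its genotype call with LPS (0.30, limma adjusted p = 0.0573).

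**Figure D5:**
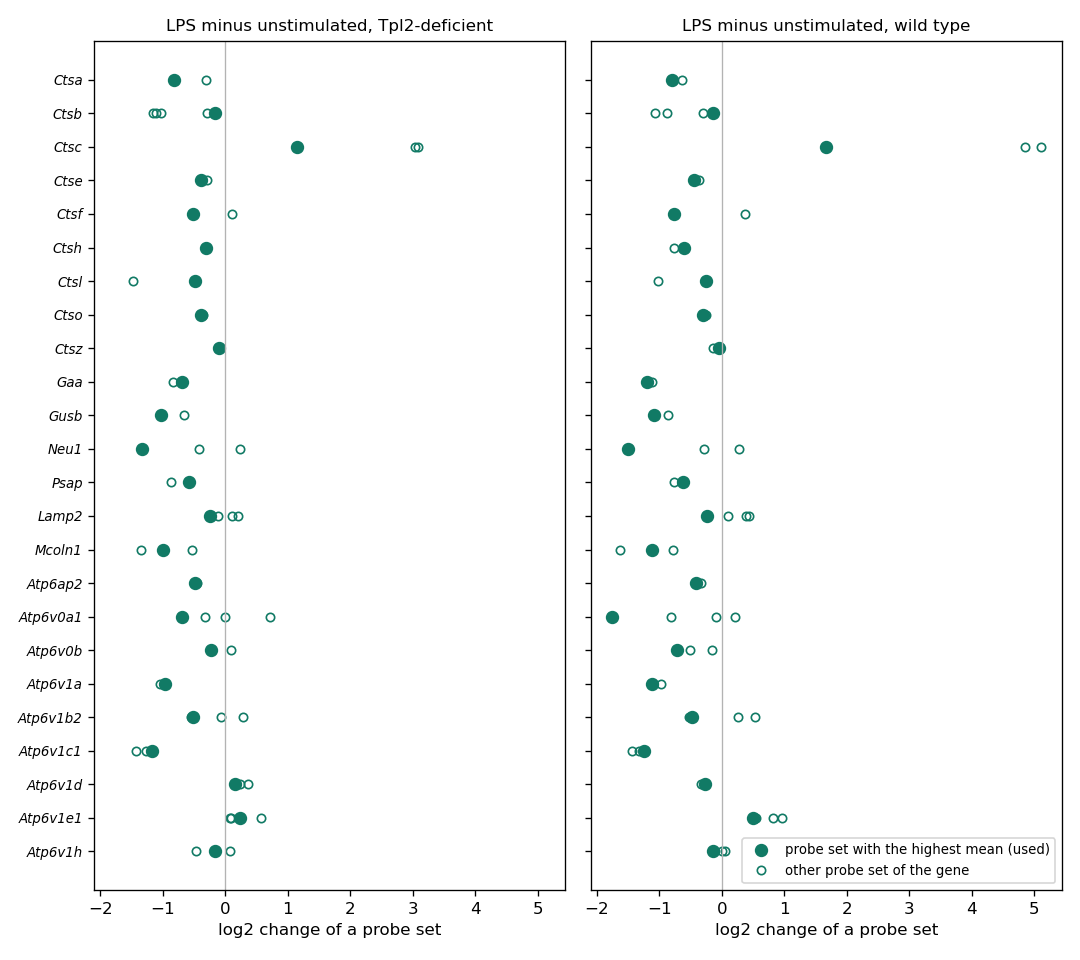
Log2 change with LPS in the KO (left panel) and in the wild type (right panel) for every probe set of the 24 genes with more than 1; a row is a gene, the filled point is the probe set used for it and open points are its other probe sets. The open Ctsc points (3.03 and 3.08 in the KO, 4.85 and 5.10 in the wild type) lie far right of the filled one, and the filled Ctsb and Ctsl points lie closer to 0 than most or all of their open ones.

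Lysosomal genes outside the 34 were taken from 6 lists, whose counts with LPS stand against 25.8% lower and 16% higher over all genes in the KO, and 30.9% lower and 21.3% higher in the wild type. Differences of the KO from the wild type with LPS stand against 8.01% higher and 5.73% lower over all genes. Of 23 measured other hydrolases and activators, 20 fell with LPS in the KO and 20 in the wild type and 0 rose, with a median of −0.78 in the KO and −0.82 in the wild type. Pla2g15, the lysosomal phospholipase, changed by −3.07 in the KO and −3.17 in the wild type. It had 8.51 and 8.75 in LPS-treated KO cells, against 11.73 and 11.68 in unstimulated KO cells, and 8.56 and 8.46 in LPS-treated wild-type cells, against 11.73 and 11.63 in unstimulated wild-type cells. Sgsh, the heparan sulfate sulfamidase, changed by −2.80 in the KO and −2.87 in the wild type, and Manba, the beta-mannosidase, by −1.73 in the KO and −1.98 in the wild type. Lipa, the acid lipase, changed by −1.07 in the KO and −1.23 in the wild type, and Smpd1, the acid sphingomyelinase, by −0.79 in the KO and −1.29 in the wild type. With LPS 0 of the 23 differed between genotypes in limma's test, where 13.7% of all genes did. Of the 23, 2 had an unadjusted p under 0.05 in that test, against 4428 of all 18193 genes. Not all differences of the 23 were small, though none passed. The KO over wild-type values ran from −2.17 to 0.40 with LPS and from −3.27 to 0.24 without.

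Of 20 other membrane and sorting genes, 11 fell and 3 rose in the KO, and 12 fell and 3 rose in the wild type. Npc1, the cholesterol exporter, changed by −1.80 in the KO and −1.70 in the wild type, and the sialic acid exporter Slc17a5 by −1.73 in the KO and −2.20 in the wild type. The cystine exporter Ctns changed by −1.83 in the KO and −2.21 in the wild type, and Mcoln3, a relative of Mcoln1, by −1.84 in the KO and −1.93 in the wild type. With LPS, the chloride-proton exchanger Clcn7 (0.57) and Mfsd8 (0.55) were higher in the KO than in the wild type, and the channel Mcoln2 was lower (−0.54). Clcn7 lost this call without any 1 array other than LPS-treated KO replicate 1, Mfsd8 without any 1 array other than LPS-treated KO replicate 1 or LPS-treated wild-type replicate 1, and Mcoln2 without either LPS-treated wild-type array.

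Of the 11 other cathepsins, Ctsk, best known as the collagen-cleaving protease of osteoclasts, was the only one to fall, in both genotypes (−0.88 in the KO, −0.71 in the wild type), and Ctsq, whose levels of 4.49 to 5.07 lay under the array medians, rose in the wild type (0.39). With LPS Ctsk was lower in the KO (−0.76), and without LPS its difference of −0.59 did not pass (limma adjusted p = 0.151). The call with LPS was lost without LPS-treated wild-type replicate 1. The Ctsq call was lost without that array or unstimulated wild-type replicate 2. Of 11 other V-ATPase genes, 4 fell in the KO and 4 fell and 3 rose in the wild type, or 36.4% and 27.3%, near the shares of all genes. Atp6v0d2, the osteoclast and macrophage isoform of the d subunit, changed by −1.84 in the KO and −1.89 in the wild type. Atp6v0a2 changed by −0.40 in the KO and −0.54 in the wild type, and Atp6v0e by −0.38 in the KO and −0.46 in the wild type. With all its probe sets averaged Atp6v0a2 instead rose in the wild type (0.33), with 0.29 in the KO, which did not pass. Atp6v1g2 fell in the KO (−0.40), Atp6v1g1 fell in the wild type (−0.49), and Atp6v0a4, whose levels of 4.83 to 5.68 lay under the array medians, rose in the wild type (0.70). The KO calls of Atp6v0a2, Atp6v0e and Atp6v1g2 were lost without either unstimulated KO array, and that of Atp6v0a2 also without LPS-treated KO replicate 1. None of the 11 differed between genotypes in limma's test, with 0 at an unadjusted p under 0.05 with LPS and 1 without. Over all 18193 genes, 4428 had such a p with LPS and 2445 without.

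Of the 5 measured cystatins, which inhibit cysteine cathepsins, Cst7 was the only one called, and it rose. Cst7 had 11.74 and 11.68 in LPS-treated KO cells, against 6.71 and 6.68 in unstimulated KO cells, and 11.17 and 11.32 in LPS-treated wild-type cells, against 6.65 and 6.85 in unstimulated wild-type cells. Its log2 rise was 5.02 in the KO and 4.50 in the wild type, and with LPS it was higher in the KO than in the wild type by 0.46, a call lost without LPS-treated wild-type replicate 1.

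Of 17 TFEB relatives and genes of mTORC1 control, 8 fell and 4 rose in the KO, and 11 fell and 2 rose in the wild type. Flcn, which with its partners acts on the Rag GTPases that recruit mTORC1 and TFEB to lysosomes, changed by −2.76 in the KO and −2.75 in the wild type. Its partner Fnip2 changed by −2.23 in the KO and −1.31 in the wild type. The Rag GTPase gene Rragd had 6.11 and 6.97 in LPS-treated KO cells, against 9.76 and 9.94 in unstimulated KO cells, and 6.06 and 6.24 in LPS-treated wild-type cells, against 10.00 and 10.21 in unstimulated wild-type cells. It changed by −3.31 in the KO and −3.95 in the wild type, the largest falls of this list. Lamtor4, of the complex that anchors the Rag GTPases, changed by −1.26 in the KO and −1.46 in the wild type. The relative Tfec rose by 2.65 in the KO and by 2.32 in the wild type.

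Mitf, another relative of Tfe3, had 11.62 and 11.47 in LPS-treated KO cells, against 12.34 and 12.30 in LPS-treated wild-type cells. Without LPS it had 11.08 and 10.97 in unstimulated KO cells, against 11.09 and 11.08 in unstimulated wild-type cells. It rose in both genotypes, less in the KO: by 0.52 there and by 1.23 in the wild type, a difference of −0.72 ± 0.14 (limma adjusted p = 0.0112). With LPS it was lower in the KO than in the wild type (−0.78), and so was Fnip2 (−0.84), whose call was lost without LPS-treated wild-type replicate 2. Rraga and Lamtor5 were higher in the KO with LPS, each by 0.47 (limma adjusted p = 0.0161 and 0.0239). The Rraga call was lost without LPS-treated KO or wild-type replicate 2, and that of Lamtor5 without LPS-treated KO replicate 1 or either LPS-treated wild-type array. The responses also differed for Rraga (0.68, 0.0240) and Fnip2 (−0.92, 0.0354). Rraga lost this without any 1 unstimulated array or LPS-treated wild-type replicate 2, and Fnip2 without any 1 array outside the LPS-treated KO group. Thus 3 of the 17 genes differed in response, 1 higher and 2 lower, where 5.72% of all genes were higher and 2.87% lower. With LPS 2 of the 17 were higher and 2 lower in the KO, where 8.01% of all genes were higher and 5.73% lower. The difference of the Mitf responses lost its call without LPS-treated wild-type replicate 1, unstimulated KO replicate 1 or unstimulated wild-type replicate 2. Without LPS 0 of the 87 measured genes of the 6 lists differed between the genotypes in limma's test, where 0.5% of all genes did. In that test 6 of the 87 had an unadjusted p under 0.05, as had 2445 of all 18193 genes. The KO over wild-type values of the 87 without LPS ran from −3.27 to 0.31.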

How the data were processed

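The deposited table holds log2 intensities for 45101 probe sets on 8 arrays. Per the submitters' processing notes, GCOS and RMA made them; versions and chip definition are not given in those notes. The range of the authors' values was checked to be that of log2 RMA, and nothing was normalized or filtered further. No detection or saturation flags are in the table, and the number of arrays limits the precision. Probe sets were named through the array's annotation table. Those with exactly 1 symbol (34945) were used and collapsed to 18193 genes by the highest mean over the arrays.

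The test was limma's moderated one (version 3.58.1, R 4.3.3; lmFit, contrasts and eBayes, two-sided); the 8 arrays entered together, each group had its own mean, and there was no covariate. There were 4 residual and 6.87 prior degrees of freedom, and Benjamini-Hochberg adjustment ran over all genes. It gave 5 contrasts: the LPS change in each genotype, KO against wild type in each condition, and the difference of the LPS changes. The script was tested on simulated data. The genes and lists were chosen with earlier results of these data known. Every one of the 34 measured genes was named, with up to 4 called genes with the largest change per list and comparison, and Map3k8. Individual probe sets and the lack of saturation flags were described after the values were seen. Promoters are RefSeq's (GRCm38.p6). Alternatives changed the probe set choice, normalization, filter, weights, arrays in the fit and pairing.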

Additional observations from a re-analysis of the deposited data

Results flagged for a closer look

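The LPS response differed between the genotypes for 3 of the 34 genes (8.82%, against 8.59% of all genes) by the test of that difference, limma's contrast of the KO change minus the wild-type change. For Tfe3 it was −1.11, from a change of −1.30 in the KO and −0.19 in the wild type. For Atp6v0a1 it was 1.06, from −0.69 in the KO and −1.75 in the wild type. For Ctsc it was −0.52, from 1.15 in the KO and 1.67 in the wild type.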

How the results depend on the processing

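The calls rest on 2 arrays a group, and the LPS-treated KO arrays received a weight of 0.379 where arrays were weighted, against 1.34 to 1.44 elsewhere. With 1 array left out, the genes lower with LPS numbered 20 to 25 in the KO and 20 to 27 in the wild type, and those higher 1 to 2 and 2 in each fit. The KO over wild-type counts with LPS ran from 1 to 4 higher and 1 to 5 lower, and those of the response difference from 1 to 3 higher and 1 to 2 lower. Where an arm kept 1 array, it was assumed to vary like the other groups. With all probe sets of a gene averaged, 21 genes fell and 3 rose with LPS in the KO, and 25 fell in the wild type. In that run 5 were lower in the KO than in the wild type with LPS, and the response difference was higher for 2. Without probe sets that may cross-hybridise (32 genes), 2 rose in the KO. With quantile normalization repeated, 4 were higher in the KO with LPS and the response difference was higher for 2. With each array centred on its median, the response difference was higher for 3 and lower for 1. Centring on spike-ins moved the median LPS change of all genes to −0.20 in the KO and −0.09 in the wild type. It left 29 genes lower with LPS in the KO and 27 in the wild type, 1 lower in the KO with LPS, and 1 with a lower response difference. With only genes above the median level tested, 2 rose with LPS in the KO, 5 were higher in the KO with LPS and the response difference was higher for 4; fewer genes entered the adjustment. With array weights, 1 was higher and 1 lower in the KO with LPS, 2 were lower in the KO without LPS (Ctsf and Atp6v0a1), and the response difference was lower for 1. With only the 4 arrays compared, 1 was lower in the KO with LPS. Where no cause is named, the cause was not tested. No call of the 34 genes changed sign. Outside them, Atp6v0a2, which fell with LPS in both genotypes, had 0.29 in the KO and 0.33 in the wild type once its probe sets were averaged. That wild-type rise passed (limma adjusted p = 0.0372), while the KO value did not (0.0708).

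The deviations of same-numbered arrays had correlations of −0.12 to 0.10 between groups, so no strong shared deviation by replicate number was seen. This cannot show whether the arrays were paired by animal or preparation, which the labels do not give. With the replicate block, the response difference was lower for 1 gene, Tfe3; 24 genes were lower with LPS in the wild type and 24 in the KO. The correlation of −0.12 between the KO groups led to a crossed block, added after the values were seen, in which 24 genes fell and 1 rose with LPS in the KO.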

Other observations

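A second Ctse probe set, 1427797_s_at, singled out after its values were seen, was the only 1 of the 78 that differed between the genotypes without LPS. It had 6.18 and 6.38 in unstimulated KO cells, against 7.38 and 7.90 in unstimulated wild-type cells (log2 −1.36 ± 0.21, limma adjusted p = 0.0176). With LPS it had 5.67 and 6.32 in KO cells, against 7.20 and 7.34 in wild-type cells (−1.27 ± 0.21, 0.00173). Its KO values lay under the array medians and its wild-type values above them, while the Ctse probe set used for the gene differed by 0.08 without LPS and by 0.13 with LPS, passing in neither.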
